A study of Sus scrofa with 6 samples.

Results

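Glycolysis splits glucose into pyruvate through a chain of cytosolic enzymes, and lactate dehydrogenase turns the pyruvate into lactate, which keeps the chain supplied with NAD+ when oxygen is short. Skeletal muscle, above all its fast fibres, holds very large amounts of these enzymes. Several of their genes are known targets of hypoxia-inducible factor in cultured cells. The genes described here are the core enzymes of this chain and the lactate dehydrogenases: HK1, HK2, GPI, ALDOA, TPI1, GAPDH, PGK1, ENO3, LDHA and LDHB. They were chosen by name, through the Ensembl pig gene ID that carries each symbol. Of the 10 listed genes, 8 had a row among the 25322 genes of the expression table, and ALDOA and LDHB, whose current IDs matched no row, are not analysed here. Of the 25322 IDs 11804 could be given a symbol, so the table may hold both under older IDs. In the table they are HK1 (ENSSSCG00000010253), HK2 (ENSSSCG00000008261), GPI (ENSSSCG00000002873), TPI1 (ENSSSCG00000000685), GAPDH (ENSSSCG00000000694), PGK1 (ENSSSCG00000012440), ENO3 (ENSSSCG00000017904) and LDHA (ENSSSCG00000013366). All 8 passed the filter on low values, which asked for an FPKM of 1 or more in 3 or more libraries.

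RNA was sequenced from a back muscle, longissimus dorsi, of 6 healthy female pigs of the Tibetan breed, which comes from the highland, with 1 library per animal. The low altitude group was 3 pigs kept on the Chengdu plain at an average of 500 m, under experimental conditions with daily feeding, from a line held in the lowland for generations. The high altitude group was 3 free-ranging pigs of the Tibetan highland at an average of 4000 m. No genetic change or drug treatment is named for either group, and the animals' age is not stated. Altitude, feeding, husbandry and line history differed together between the groups, and their parts cannot be told apart. Levels are FPKM, fragments scaled to gene length and sequencing depth, so genes of different length can be set side by side.

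Read totals are not kept in FPKM, and absolute depth is unknown. The most common FPKM ratio to high altitude library 1, over genes below 0.15 in both libraries, gave relative depths of 0.768 to 1.07 times that library's. Only 11.5 to 19.1% of the genes compared lay at that ratio, so these depths are rough. The FPKM total per library was 506611 to 566907 at low altitude and 526368 to 571855 at high altitude. The tissue label was checked on muscle genes: DES, NEB and CAPN3 were well above 0 in every library. NEB and CAPN3 had groups that did not overlap, higher at low altitude, while those of DES overlapped. Neither passed the test over all genes (limma, Benjamini-Hochberg adjusted p = 0.645 and 0.479). Groups did not overlap, in either direction, in 16.1% of all tested genes. The summed level of 7 fast fibre markers was 44618 to 45617 FPKM at low altitude and 41274 to 50363 at high altitude. This sum rested mainly on MYL1, MYL11 and TNNC2 and does not show the other markers. Of the 7, 3 were lowest in high altitude library 1 (ATP2A1, CASQ1 and PVALB) and 1 was highest there (MYL1). Among these 7 markers 1, MYBPC2, had groups that did not overlap, higher at low altitude (limma, Benjamini-Hochberg adjusted p = 0.431). High altitude library 1 stood apart from the other 5. The summed level of the 4 slow fibre markers found of 10 listed, MYL3, TNNT1, TNNC1 and TNNI1, was 3106 to 4707 FPKM in the low altitude libraries, and 10493, 2751 and 6874 in high altitude libraries 1 to 3. In high altitude library 1 the summed level of the 4 fibroblast and matrix markers found of 5 listed, COL1A2, COL3A1, DCN and LUM, was 243 FPKM, whereas the other 5 libraries were at 686 to 1063. In whole muscle, fewer cells of a type and less RNA per cell cannot be told apart. High altitude library 1 held the lowest value of 42.8% of the tested genes. The main results that rest on this library are given with and without it.

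Transcripts of the glycolytic enzymes were among the most abundant of the muscle, except at the entry step. The 8 genes together held 5.67 to 6.98% of the FPKM total in the low altitude libraries and 6.03 to 8.63% in the high altitude libraries. With genes of the mitochondrial genome left out of the total, the share was 7.59 to 10.1% at low altitude and 8.94 to 12.4% at high altitude. Both maxima were high altitude library 1. High altitude libraries 2 and 3 held 6.52 and 6.03% of the full total, and 9.58 and 8.94% without the mitochondrial genes. These shares lay inside the low altitude ranges. GAPDH, which oxidises glyceraldehyde 3-phosphate and makes the NADH of the pathway, ranked between 2 and 6 among all genes in every library. It made up 50.0 to 66.4% of the summed FPKM of the 8, or 50.0 to 56.8% without high altitude library 1. ENO3, the muscle form of enolase, ranked between 14 and 18, LDHA between 20 and 29 and TPI1 between 26 and 41. The hexokinases, which phosphorylate incoming glucose, ranked between 1994 and 6303.

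**Figure D1:**
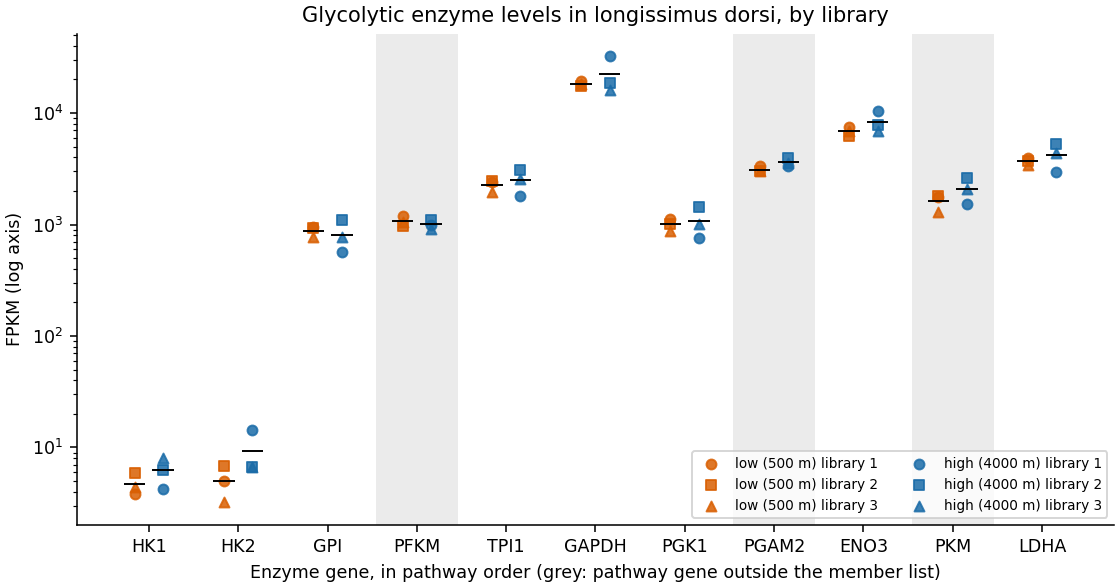
FPKM on a log axis of each enzyme gene in pathway order; orange points are the 3 low altitude libraries, blue points the 3 high altitude libraries, the marker shape gives the library number and the black line is the group mean. Hexokinases lie at an FPKM of 14.3 or less, all later enzymes lie above 500 and GAPDH lies highest, with high altitude library 1 at 32600.

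Along the pathway the mean level over the 6 libraries increased steeply between hexokinase and phosphoglucose isomerase: GPI averaged 848 FPKM and HK2 7.12, a ratio of 119. Among the members the descending order was GAPDH, ENO3, LDHA, TPI1, PGK1, GPI, HK2 and HK1. GAPDH exceeded ENO3 2.69-fold and ENO3 exceeded LDHA 1.93-fold, in 6 of 6 libraries each and with ranges that did not overlap. PGK1 exceeded GPI in 6 of 6 libraries as well, but by 1.22-fold, and their ranges over the libraries overlapped. HK2 exceeded HK1 in 4 of 6 libraries, so the order of the hexokinases is not settled by these samples. The enzymes between the members had levels of the same size: PFKM, the muscle phosphofructokinase, averaged 1039 FPKM, the muscle phosphoglycerate mutase PGAM2 3378 and pyruvate kinase PKM 1854. PFKM and PGK1 did not differ beyond their spread, with PFKM higher in 3 of 6 libraries.

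The main question of the design was whether muscle transcripts differ between lowland and highland pigs. None of the 8 genes differed between the altitudes in limma (Benjamini-Hochberg adjustment over the 10005 genes tested, adjusted p of 0.550 to 0.972), and 0 had an unadjusted p under 0.05. All 8 had overlapping groups. Over all tested genes 0.23% passed the adjusted threshold (0.16% higher and 0.07% lower at low altitude), 9.42% had an unadjusted p under 0.05 and 16.1% had groups that did not overlap. Estimates were below 0, so lower at low altitude, for 7 of the 8, as they were for 42.3% of all tested genes. The median log2 fold change of the 8, taken as low minus high altitude in log2(FPKM + 1), was −0.18, beside 0.041 over all genes. With median-of-ratios scaling 7 of the 8 were below 0 (median −0.23), and with rescaling to a common FPKM total 6 were (median −0.105). With quantile normalization 3 of the 8 were below 0 and their median was 0.0021, so the lean of the 8 depended on which scaling was used. It also depended on single libraries, with 4 of 8 below 0 without high altitude library 2 and 5 of 8 without low altitude library 3. With any other library left out 7 of 8 were below 0, and the median was −0.289 without high altitude library 1. With array weights all 8 were below 0, with a median of −0.235.

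**Figure D2:**
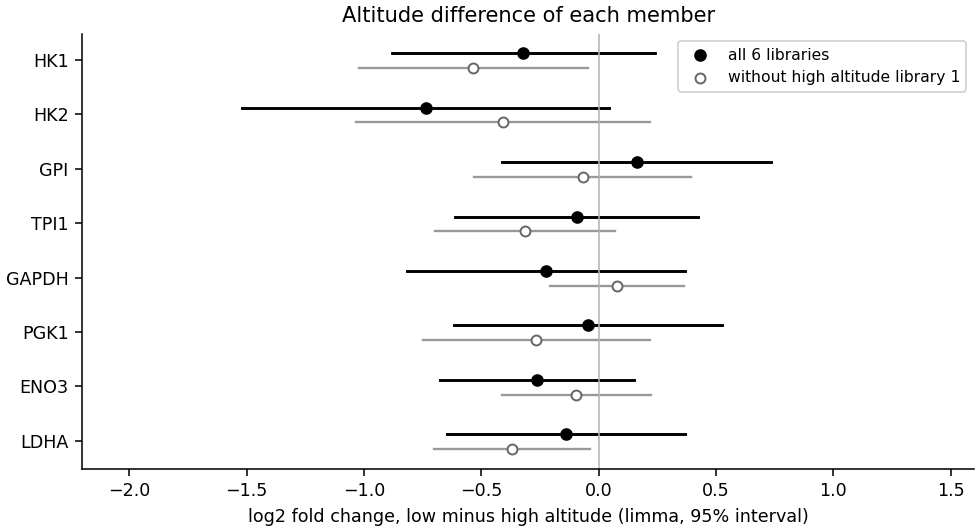
Log2 fold change of each member, low minus high altitude, from limma with its 95% interval; filled points use all 6 libraries and open points leave out high altitude library 1. Every interval from all 6 libraries includes 0, and the GAPDH estimate lies at −0.22 with that library and at 0.08 without it.

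The hexokinases carry out the same reaction, HK1 as the form of most tissues and HK2 as the insulin-responsive form of muscle and fat. HK2 was at 5.04, 6.75 and 3.21 FPKM in low altitude libraries 1 to 3 and at 14.3, 6.69 and 6.75 in high altitude libraries 1 to 3. High altitude library 1 was the highest and low altitude library 3 the lowest, and the other 4 lay between 5.04 and 6.75, so the groups overlapped. Its log2 fold change of −0.74 (SE 0.33, 95% interval −1.52 to 0.04) was the furthest from 0 of the 8 and did not pass the test (limma with Benjamini-Hochberg adjustment, adjusted p = 0.550). Without high altitude library 1 the estimate was −0.41 (limma, Benjamini-Hochberg adjusted p = 0.541). The 95% interval excluded 0 only with replicate number as a block, without low altitude library 2 and without high altitude library 2. HK2 did not pass in these either (limma, Benjamini-Hochberg adjusted p = 0.543, 0.532 and 0.631).

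HK1 was at 3.79, 5.96 and 4.39 FPKM in the low altitude libraries and at 4.24, 6.33 and 8.10 in the high altitude libraries. High altitude library 3 was the highest for HK1, whereas high altitude library 1, the highest for HK2, was next to the lowest. The parting of the hexokinases rested on high altitude library 1. Among the remaining libraries both genes were lowest in low altitude libraries 1 and 3. HK2 made up 57.1, 53.1 and 42.2% of the summed hexokinase FPKM at low altitude and 77.1, 51.4 and 45.4% at high altitude. The groups overlapped in this share, and high altitude library 1 alone lay above 57.1%. The HK1 log2 fold change was −0.32 (SE 0.24, 95% interval −0.88 to 0.24; limma, Benjamini-Hochberg adjusted p = 0.714). It was −0.53 without high altitude library 1 (95% interval −1.02 to −0.04; limma, Benjamini-Hochberg adjusted p = 0.347, unadjusted p = 0.0370). Without low altitude library 1 it was −0.20 and without high altitude library 3 −0.14 (limma, Benjamini-Hochberg adjusted p = 0.930 and 0.862). HKDC1, a hexokinase relative whose gene lies directly beside HK1 in the RefSeq annotation of the pig assembly Sscrofa11.1, was listed at 0 in 4 libraries and at 0.061 or less in the others.

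**Figure D3:**
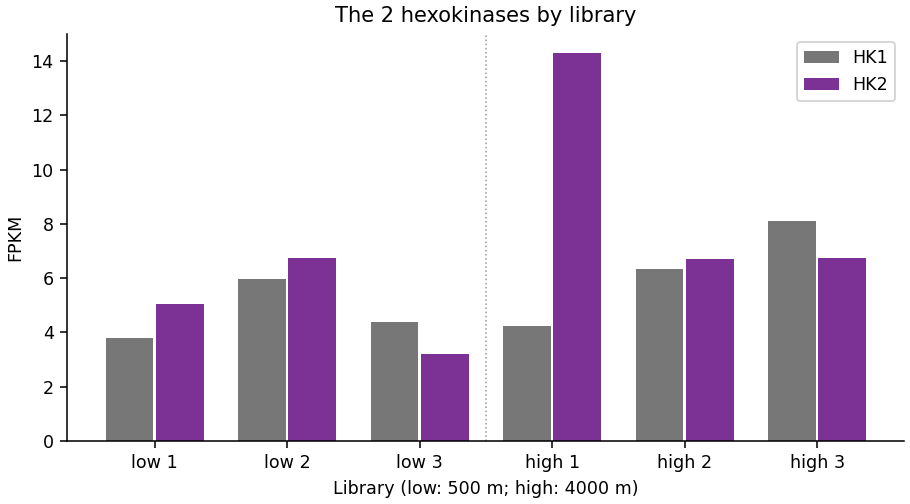
FPKM of HK1 (grey bars) and HK2 (purple bars) in each library, low altitude on the left and high altitude on the right of the dotted line. HK2 reaches 14.3 in high altitude library 1 and stays at 6.75 or less in the other 5 libraries.

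GPI, TPI1, PGK1 and LDHA shared 1 pattern across the animals: each was lowest in high altitude library 1 and highest in high altitude library 2. Of all tested genes 42.8% were lowest in high altitude library 1, and 16.7% were highest in high altitude library 2. GPI, which converts glucose 6-phosphate to fructose 6-phosphate, was at 955, 922 and 771 FPKM in the low altitude libraries and at 570, 1093 and 777 in the high altitude libraries. Both extremes fell in the high altitude group, and the low altitude values lay between them. GPI alone of the 8 had an estimate above 0 (log2 fold change 0.16, SE 0.24, 95% interval −0.41 to 0.74; limma, Benjamini-Hochberg adjusted p = 0.879), and without high altitude library 1 the estimate was −0.07.

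TPI1, which interconverts the triose phosphates, was at 2393, 2476 and 1970 FPKM at low altitude and at 1785, 3093 and 2569 at high altitude. PGK1, the kinase that makes the first ATP of the pathway, was at 1125, 1019 and 868 FPKM at low altitude and at 759, 1431 and 1005 at high altitude. In both genes the low altitude libraries again lay inside the range of the high altitude libraries. The group means differed by less than the spread within the high altitude group: TPI1 averaged 2279 ± 272 FPKM at low altitude and 2482 ± 658 at high altitude, and PGK1 averaged 1004 ± 129 at low altitude and 1065 ± 340 at high altitude (SD, n = 3 each). Their log2 fold changes were −0.09 (95% interval −0.61 to 0.42) and −0.04 (−0.62 to 0.53), with limma, Benjamini-Hochberg adjusted p of 0.931 and 0.972. Without high altitude library 1 they were −0.31 and −0.26 (limma, Benjamini-Hochberg adjusted p = 0.452 and 0.597).

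LDHA encodes the muscle type subunit of lactate dehydrogenase, the form usually linked to lactate production. It was at 3959, 3708 and 3416 FPKM in the low altitude libraries and at 2952, 5231 and 4342 in the high altitude libraries. The high altitude animals held the lowest value and the 2 highest. The means were 3694 ± 272 FPKM at low altitude and 4175 ± 1149 at high altitude (SD, n = 3 each), and the log2 fold change was −0.14 (SE 0.22, 95% interval −0.65 to 0.37; limma, Benjamini-Hochberg adjusted p = 0.884). Without high altitude library 1 it was −0.37 (95% interval −0.70 to −0.04). It did not pass there either (limma, Benjamini-Hochberg adjusted p = 0.340, unadjusted p = 0.0347). LDHC, the neighbour of LDHA in the RefSeq annotation and known as the testis form, was listed at 0 in 5 libraries and at 0.0738 FPKM in low altitude library 2.

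GAPDH and ENO3 went another way, with their highest values in high altitude library 1. GAPDH was at 19454, 17389 and 18286 FPKM in the low altitude libraries and at 32600, 18631 and 16206 in the high altitude libraries. Apart from high altitude library 1, which was 1.81 times the mean of the others, the 5 libraries lay between 16206 and 19454. The means were 18376 ± 1036 FPKM at low altitude and 22479 ± 8849 at high altitude (SD, n = 3 each), so the spread at high altitude was set mainly by that library. The log2 fold change was −0.22 (SE 0.25, 95% interval −0.81 to 0.37; limma, Benjamini-Hochberg adjusted p = 0.826). Without high altitude library 1 it was 0.08 (95% interval −0.21 to 0.37; limma, Benjamini-Hochberg adjusted p = 0.802). The same library held the highest summed slow fibre and lowest summed matrix marker levels given above. Of the 4 slow fibre markers 3 were highest there, and MYL3 was highest in high altitude library 3. The part of these marker levels in the GAPDH value was not tested.

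ENO3, which makes phosphoenolpyruvate in adult muscle fibres, was at 7461, 6270 and 6852 FPKM at low altitude and at 10388, 7794 and 6848 at high altitude. High altitude library 1 was again the highest, and high altitude library 3 lay inside the low altitude range. The log2 fold change was −0.26 (SE 0.18, 95% interval −0.68 to 0.15; limma, Benjamini-Hochberg adjusted p = 0.692), and −0.09 without high altitude library 1 (limma, Benjamini-Hochberg adjusted p = 0.784). ENO1, the enolase of most tissues, was at 28.9, 33.4 and 31.1 FPKM at low altitude and at 24.1, 40.9 and 42.3 at high altitude. ENO1 was lowest in the library where ENO3 was highest, as were 42.8% of all tested genes.

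**Figure D4:**
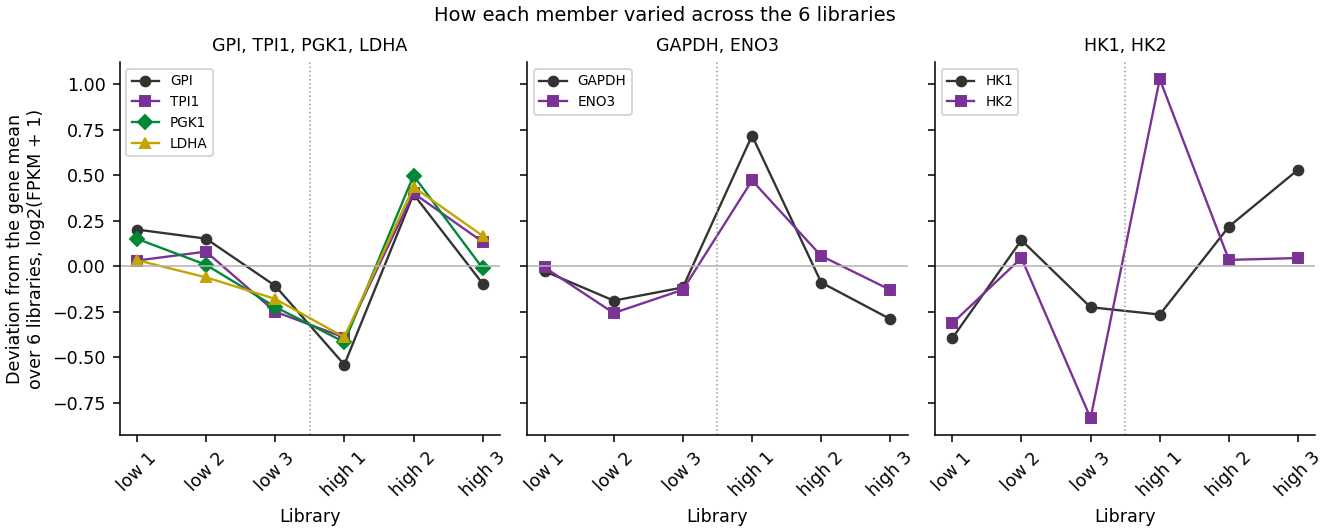
Deviation of each member from its own mean over the 6 libraries, on the log2(FPKM + 1) scale, with low altitude libraries left of the dotted line and high altitude libraries right of it. GPI, TPI1, PGK1 and LDHA dip together in high altitude library 1 and peak in high altitude library 2, while GAPDH, ENO3 and HK2 peak in high altitude library 1.

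Ratios between genes of the same library do not change when 1 factor scales the whole library, but quantile normalization can change them. The ratios put numbers on the split described above, which was drawn after the values were seen and is given without a test. LDHA over TPI1 was 1.655, 1.498 and 1.734 at low altitude and 1.654, 1.691 and 1.690 at high altitude. TPI1 over PGK1 stayed between 2.13 and 2.56 in all 6 libraries. The 6 ratios among GPI, TPI1, PGK1 and LDHA had a median SD of 0.112 on the log2 scale over the 6 libraries. For comparison, the median SD was 0.39 over the 5050 ratios of the 101 tested genes with a mean FPKM of at least 500 and values above 0 throughout.

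GAPDH over PGK1, by contrast, was 17.3, 17.1 and 21.1 at low altitude and 43.0, 13.02 and 16.1 at high altitude. ENO3 over PGK1 was 6.63, 6.16 and 7.90 at low altitude and 13.7, 5.45 and 6.81 at high altitude. In both ratios high altitude library 1 stood far above the rest, while high altitude libraries 2 and 3 lay below the low altitude range for GAPDH, and below and inside it for ENO3. GAPDH over ENO3 ranged only between 2.37 and 3.14. The 8 ratios of GAPDH or ENO3 to GPI, TPI1, PGK1 or LDHA had a median SD of 0.555 on the log2 scale. Without high altitude library 1 it was 0.201, while that of the ratios among GPI, TPI1, PGK1 and LDHA was 0.116 and that of the 5050 ratios 0.322. The wide spread of the GAPDH and ENO3 ratios therefore rested on that library, and the narrow spread among the other enzymes did not.

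**Figure D5:**
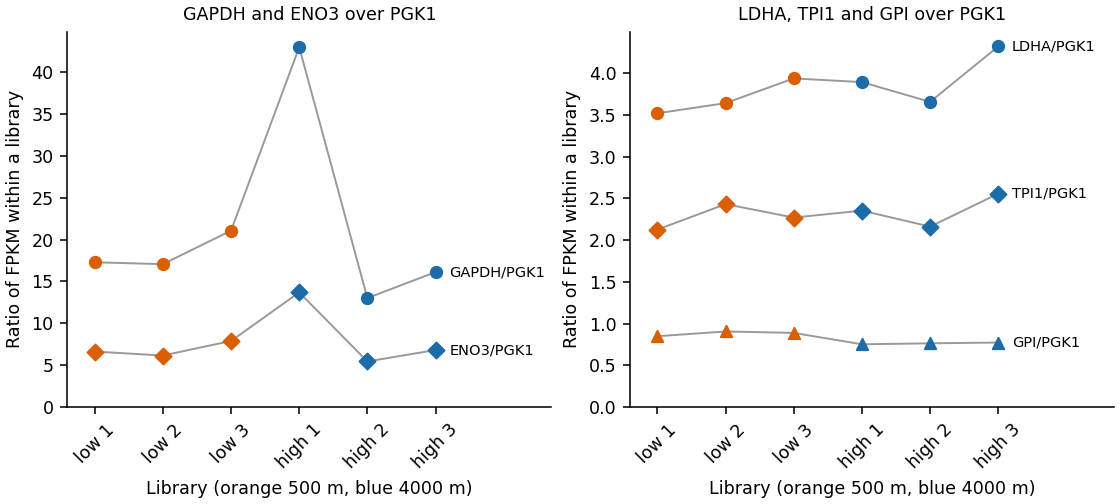
Ratios of FPKM within each library, with GAPDH and ENO3 over PGK1 on the left and LDHA, TPI1 and GPI over PGK1 on the right; orange points are low altitude and blue points high altitude libraries. GAPDH over PGK1 reaches 43.0 in high altitude library 1, while LDHA over PGK1 stays between 3.52 and 4.32.

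Of the 28 ratios between members, 3 had groups that did not overlap, and each of the 3 involved GPI. Among the 5050 ratios of abundant genes the share was 21.0%, so the count for the members does not set them apart. PGK1 over GPI was 1.18, 1.11 and 1.13 at low altitude and 1.33, 1.31 and 1.29 at high altitude. TPI1 over GPI was 2.51 to 2.69 at low altitude and 2.83 to 3.31 at high altitude, and LDHA over GPI was 4.02 to 4.43 at low altitude and 4.79 to 5.59 at high altitude. In each of these ratios GPI was the larger relative to its partner at low altitude. The ratios were not tested, and these 3 were picked out after their values were seen.

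The other genes of the pathway were read from a list of 30 isoforms, mutases, kinases and transporters, of which 23 had a row and 13 were tested. None of the 13 passed in limma with Benjamini-Hochberg adjustment over all genes (adjusted p of 0.462 to 0.934). An unadjusted limma p under 0.05 was found for 3, beside 9.42% of all tested genes. Estimates were below 0 for 11, beside 42.3% of all tested genes. PGAM1, the mutase of most tissues, was at 9.70, 13.7 and 10.7 FPKM at low altitude and at 13.9, 17.3 and 17.1 at high altitude. MPC2, a subunit of the carrier that takes pyruvate into mitochondria, was at 33.1, 42.9 and 36.7 FPKM at low altitude and at 54.4, 44.1 and 49.5 at high altitude. In both genes every low altitude library lay below every high altitude library, as in 4.8% of all tested genes. SLC16A3, the transporter that exports lactate from glycolytic fibres, was at 57.0, 49.8 and 32.6 FPKM at low altitude and at 79.2, 90.2 and 56.9 at high altitude, where low altitude library 1 just exceeded high altitude library 3. The log2 fold changes were −0.47 for PGAM1, −0.39 for MPC2 and −0.70 for SLC16A3 (limma, Benjamini-Hochberg adjusted p = 0.462, 0.506 and 0.476).

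PGAM2 was at 3316, 3032 and 2993 FPKM at low altitude and at 3366, 3978 and 3583 at high altitude. The groups did not overlap, with low altitude lower, as in 3 of the 13 tested genes of the list and 4.8% of all tested genes. The log2 fold change of −0.22 missed the threshold (limma, Benjamini-Hochberg adjusted p = 0.624). PKM, which makes pyruvate and the last ATP of the chain, was at 1777, 1810 and 1293 FPKM at low altitude and at 1531, 2619 and 2093 at high altitude. PKM also peaked in high altitude library 2, and its groups overlapped (−0.34, limma, Benjamini-Hochberg adjusted p = 0.699). PFKFB3, which makes the activator of phosphofructokinase, was at 113, 84.0 and 241 FPKM at low altitude and at 2.11, 11.6 and 4.18 at high altitude. PFKM, the enzyme it acts on, was at 1189, 975 and 1062 FPKM at low altitude and at 995, 1099 and 912 at high altitude, with overlapping groups. PFKFB3 passed the test over all genes (log2 fold change 4.50, SE 0.57, 95% interval 3.17 to 5.83; limma, Benjamini-Hochberg adjusted p = 0.0485). Its groups did not overlap, and it passed in 7 of 18 alternatives (limma, Benjamini-Hochberg adjusted p of 0.0103 to 0.218). With 1 library left out it passed only without high altitude library 2 (adjusted p of 0.0287 from limma with the same adjustment), at log2 fold changes of 4.04 to 5.05 over the alternatives.

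The genes most like the members were found by the root mean square difference of centred log2(FPKM + 1) values over the 6 libraries, among 1910 named genes with a mean FPKM of at least 10. For the mean profile of the 8 members these were the mitochondrial ribosomal protein MRPS34, the acetyl-CoA synthetase ACSS2 and the mitochondrially encoded oxidase subunit COX2, with differences of 0.0368, 0.0463 and 0.0537, where the median gene had 0.253. For GAPDH they were FN3K, FASTK and ACTR1B, with 0.0549, 0.112 and 0.115, where the median gene had 0.44. The mean profile joins members that moved in opposite ways in high altitude library 1, so it describes no single member.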

How the data were processed

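The authors deposited FPKM values for 25322 Ensembl pig genes in 6 libraries, matched to animals by column title. Per the labels' protocols, muscle was frozen at sampling and strand-specific dUTP libraries were made from total RNA. TopHat2 2.0.11 and Cufflinks 2.2.1 are named without a role, per the submitters' processing notes. No genome build is stated, hence no coordinates. How reads were divided between near-identical copies is not stated, and glycolytic genes such as GAPDH have processed copies in mammals, so levels are uncertain to that extent. In 107 genes a library was listed at 0 while another reached an FPKM of 5, so a 0 is reported only as listed.

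Symbols were found for 11804 IDs. The 10005 genes past the filter were tested on log2(FPKM + 1), which understates changes of low genes, with limma 3.58.1 in R 4.3.3 (trend, two-sided, low minus high altitude, Benjamini-Hochberg threshold 0.05). On simulated data for this comparison over 10005 genes, 61% of genes with a log2 change of 1 and 86% with a change of 2 were recovered. The changed genes were drawn from all tested genes, whose median log2 range over the libraries was 0.61. For the 8 members it was 0.921, so these shares do not give the recovery for the members. Members, lists and naming rule were chosen with earlier results of these data known. The rule took the members, 4 other pathway genes by unadjusted p, PKM, PGAM2, PFKM, PFKFB3 and the nearest genes. ENO1, HKDC1, LDHC, SLC2A4, GPD1 and HK3, and the markers KDR and MYBPC2, were named after their values were seen. Promoter motifs and the LDHB share, both planned, were not run for lack of sequence and of an LDHB row. Alternatives covered pseudocounts, filters, scalings, limma settings, a replicate block and each library left out. Same-numbered libraries correlated by −0.0154, 0.0949 and −0.141 in their deviations from group means, and differently numbered ones by −0.151 to 0.161. These values gave no sign that the numbers pair the animals, but so few correlations cannot exclude it. Figures used matplotlib 3.10.9.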

Additional observations from a re-analysis of the deposited data

How the results depend on the processing

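The count of changed members was 0 in each of the 18 alternatives. The count over all genes, 23, was 6 with no filter, 9 after median-of-ratios scaling, 38 with array weights and 10 after quantile normalization, and 4 to 21 with a library left out. With the replicate block it was 19, with 0 members. Of 144 member estimates under alternatives 131 kept their direction. The 13 that turned were all within 0.19 of 0, and none passed: PGK1 with rescaling to a common total (0.03), without low altitude library 3 (0.06) and without high altitude library 2 (0.19). TPI1 turned without the same libraries (0.01 and 0.08), and LDHA without high altitude library 2 (0.04). Quantile normalization turned TPI1 (0.11), ENO3 (0.07), PGK1 and LDHA (0.00 each). Without high altitude library 1 GAPDH was 0.08 and GPI −0.07, and GPI was −0.02 with array weights. With a library left out, estimates ran from −0.07 to 0.40 for GPI, −0.31 to 0.08 for TPI1, −0.42 to 0.08 for GAPDH, −0.26 to 0.19 for PGK1 −0.37 to 0.04 for LDHA, −0.53 to −0.14 for HK1, −0.94 to −0.41 for HK2 and −0.39 to −0.09 for ENO3. The cause was not tested. The median over all genes was 0.101 with rescaling. The difference in HK2 share, low minus high, was −7.18 percentage points (−13.4 to 2.40 with a library left out), and that in the members' share of the FPKM total −0.759 (−1.27 to 0.0237), or −1.44 with genes of the mitochondrial genome left out of the total. The GAPDH and ENO3 ratio spread of 0.555 was 0.201 without high altitude library 1, an alternative added after seeing the data. Depth is unknown, so the precision of HK1 and HK2, at low FPKM, has no counting interval.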

Other observations

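SLC2A4, the insulin-responsive glucose transporter of muscle, was listed at 0.0911, 0.131 and 0.298 FPKM at low altitude and at 0.122, 0.203 and 0.0718 at high altitude, below the filter for testing in every library. This transporter is known as an abundant muscle protein, the annotation behind this row was not checked, and the values are not given as absence of its transcript. GPD1, which links glycolysis to the glycerol phosphate shuttle, was at 521, 561 and 478 FPKM at low altitude and at 407, 813 and 666 at high altitude, so its lowest and highest values fell in the same libraries as those of GPI, TPI1, PGK1 and LDHA. HK3, a hexokinase of blood cells, was at 1.15, 1.19 and 3.14 FPKM at low altitude and at 2.78, 2.06 and 3.59 at high altitude, with overlapping groups. RefSeq places 18 protein-coding genes between TPI1 and GAPDH on the same chromosome, yet TPI1 was lowest and GAPDH highest in high altitude library 1. Summed levels of the adipocyte, erythroid, endothelial and macrophage markers overlapped between the groups, at 4.52 to 12.4, 58.8 to 118, 35.2 to 49.8 and 5.145 to 10.7 FPKM at low altitude and at 3.88 to 22.0, 57.2 to 166, 28.6 to 48.2 and 6.31 to 7.45 at high altitude. The endothelial sum rested mainly on PECAM1 and does not show KDR. KDR was at 1.90 to 4.75 FPKM at low altitude and at 5.74 to 7.69 at high altitude. Its groups did not overlap, with low altitude lower, as in 4.8% of all tested genes. KDR did not pass the test (limma, Benjamini-Hochberg adjusted p = 0.303), and the groups of PECAM1 and TEK overlapped.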
